A study of Homo sapiens with 29 samples.

Results

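The 7 genes described here encode the calcium-regulated part of the muscle thin filament: the troponins TNNT2, TNNI1, TNNI3 and TNNC1, the tropomyosin TPM1 and the sarcomeric actins ACTC1 and ACTA1. They were chosen by name, and a probe belongs to a gene where the platform's annotation gives that symbol. Of the 7 genes, 6 have a probe among the 20046 genes with a probe. No probe carries the symbol TNNT2, the cardiac troponin T, so TNNT2 was not analysed here. TNNI1, TNNI3, TNNC1 and ACTA1 have 1 probe each, ACTC1 has 2 and TPM1 has 4.

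The cells were HuES6, an established human embryonic stem cell line, set on a path toward heart muscle in a serum-free medium. The FB arm received 10 ng/ml FGF2 and 1 ng/ml BMP4 on day 0 and lacked the WNT activator. The BW arm received 1 ng/ml BMP4 and the WNT activator, named CHIR00921 in the labels, at 1 uM, and lacked FGF2. The FW arm received 10 ng/ml FGF2 and 1 uM CHIR00921 and lacked BMP4. The FBW arm received all 3 at these doses. Per the labels, insulin was present in all arms on day 0 and left out from day 1. IWP-2, which blocks WNT secretion, was given to all arms at 2 uM on days 2 and 3. Each arm gave 1 bead array on each of days 1, 2, 3, 4, 5, 6 and 8, and undifferentiated cells gave 1 array on day 0, 29 in all. The labels describe the FBW arrays of days 3 and 6 as also deposited with a second series that shares this time course. All arms are of 1 cell line, and the labels do not say whether the wells of an arm on different days came from separate cultures. The days of an arm stand in for repeats here. With day as a block, the p-values set a difference between arms against how such differences vary over days, pooled over all 4 arms of a fit. A parting of the arms that widens over the days enters that spread. Where neighbouring days are related, the p-values given here are too small.

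In striated muscle, tropomyosin lies along the actin filament and covers the sites where myosin binds. Troponin T ties the troponin complex to tropomyosin, troponin I holds the complex in its blocking position, and calcium bound to troponin C releases it. The developing heart uses TNNI1, the slow skeletal troponin I, before TNNI3, the adult cardiac form, and it transcribes ACTA1, the skeletal actin, beside ACTC1, the cardiac one.

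Levels are background-corrected, quantile-normalised log2 signals. A probe counted as detected where its detection p-value was under 0.01. Between 16218 and 18796 of 47323 probes were detected per array, and the median raw signal lay between 94.8 and 110.05. The lowest level of a detected probe lay between 4.87 and 5.21 on the arrays, and the highest level on each array was 14.17. Levels of different probes are not set against each other. These are bulk cultures, in which fewer cells of a type and less RNA per cell cannot be told apart.

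By measured levels 5 members were at least 4-fold above day 0 in FBW on day 8, namely TNNI1, TNNC1, TPM1, ACTC1 and ACTA1, where 4.82% of 11948 genes counted were. TNNI1 was not detected on day 0 and its bound is at least 3.00-fold, so 4 members remain when both arrays must detect the gene. TNNI3 was 1.62 log2 above day 0 on that day. The members reached this point at different times. ACTC1 was 4-fold above day 0 from day 4, TNNC1 and TPM1 from day 5, and ACTA1 on day 8. On day 1, ACTA1 was at least 4-fold below day 0 in FBW, as were 0.555% of 11526 genes counted. These day 0 comparisons rest on 1 array a side and have no test. Without background correction 3 members passed 4-fold on day 8.

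**Figure D1:**
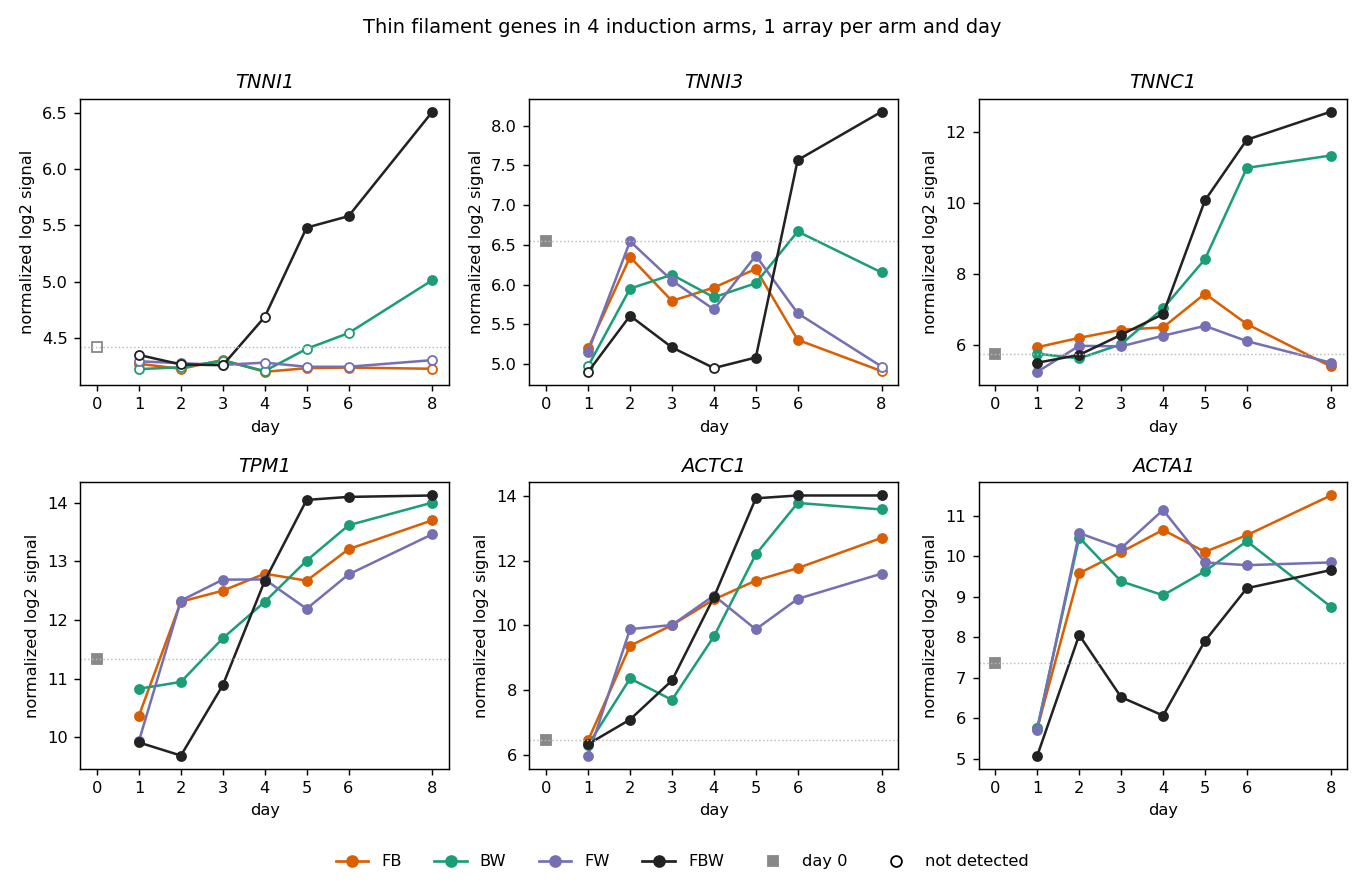
Normalised log2 signal (vertical axes, a separate range for each gene) of the 6 members with a probe by day (horizontal axes), with FB, BW, FW and FBW as lines, 1 array per point, open points where the probe was not detected, and day 0 as a square with a dotted line at its level. TNNC1 is high late in FBW and BW and low in FB and FW, TNNI1 has filled points in FBW from day 5 and in BW on day 8 alone, while ACTA1 is lower in FBW than in the other arms on each of days 1 to 6.

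TNNC1 encodes the calcium-binding troponin C of heart and slow skeletal muscle. The gene lies on chromosome 3 at 52451100 to 52454041 (GRCh38.p14). Its level on days 4, 5, 6 and 8 was 6.50, 7.45, 6.59 and 5.40 in FB. In BW it was 7.03, 8.42, 11.00 and 11.35 on the same days. In FW it was 6.26, 6.54, 6.11 and 5.50, and in FBW 6.87, 10.08, 11.79 and 12.58. Day 0 stood at 5.73. BW and FBW climbed far above day 0, while FB and FW ended below it. On each of days 5, 6 and 8 both FB and FW lay below both BW and FBW. Averaged over these 4 days, TNNC1 was lower than in FBW in FB (log2 difference -3.85 ± 0.96 SE, 14.4-fold lower, adjusted p = 0.00521, 4 of 4 days). FW was lower on 4 of 4 days as well (-4.23 ± 0.96, 18.7-fold lower, adjusted p = 0.00265). BW was not separated from FBW (-0.88 ± 0.96, 95% interval -2.98 to 1.21, adjusted p = 0.528). It stood above FW (3.35 ± 0.96, adjusted p = 0.0251), and above FB by a value that missed the threshold (2.97 ± 0.96, adjusted p = 0.0503). With each day left out in turn, the FB value ran from -2.74 without day 8 to -5.01 without day 4, and the FW value from -3.28 without day 8 to -5.43 without day 4. Without day 6 the FB call on TNNC1 was lost (-3.40, adjusted p = 0.051), and the call of BW over FW was lost without any of days 5, 6 or 8, with values of 2.51 to 3.83.

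TNNI1, the slow skeletal troponin I of the early heart, lies on chromosome 1 at 201403784 to 201421730 and was detected on 4 of 29 arrays. These were FBW on day 5 at 5.48, day 6 at 5.58 and day 8 at 6.51, and BW on day 8 at 5.01. None of the 7 arrays of FB or of FW, nor day 0, detected it, and their measured levels of 4.20 to 4.41 give only an upper bound. Over days 4 to 8 TNNI1 averaged 4.22 ± 0.02 in FB and 5.57 ± 0.75 in FBW (SD, n = 4 days), of which 3 arrays in FBW detected it. Counted against the detection limit, FBW was at least 1.35-fold higher than FB. The limma fit on measured readings, undetected ones included, gave -1.34 ± 0.23 for FB minus FBW (adjusted p = 0.000411). Against FW, which averaged 4.27 ± 0.03, FBW was at least 1.39-fold higher. The same fit gave -1.30 ± 0.23 for FW minus FBW (adjusted p = 0.000448). These p-values belong to the fitted differences, and the bounds were not tested. On day 8 FBW was at least 3.00-fold above day 0, and BW at least 1.06-fold. The fitted difference of BW from FBW was -1.03 ± 0.23 (adjusted p = 0.00691), but 1 of 4 BW arrays and 3 of 4 FBW arrays detected TNNI1, so it is read partly against background. This call was lost without day 5 (-1.01, adjusted p = 0.071) or day 6 (-1.02, adjusted p = 0.066). Without day 8 too few arrays detected TNNI1 for a test.

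TNNI3, the adult cardiac troponin I, lies on chromosome 19 at 55151767 to 55157732 and was detected on 24 of 29 arrays, day 0 among them at 6.55. On days 4, 5, 6 and 8 it measured 5.96, 6.20, 5.30 and 4.91 in FB, the last not detected. BW gave 5.84, 6.02, 6.67 and 6.15. FW gave 5.69, 6.37, 5.64 and 4.97, the last not detected. FBW gave 4.95, not detected, then 5.08, 7.57 and 8.18. In FBW it lay below all other arms on days 4 and 5 and above them on days 6 and 8. The difference over the window was not called in FB (-0.85 ± 0.64, 95% interval -2.23 to 0.53, adjusted p = 0.276), in BW (-0.27 ± 0.64, adjusted p = 0.778) or in FW (-0.78 ± 0.64, adjusted p = 0.312). The signs for BW and FW turned without day 8, to 0.31 and 0.031.

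The window of 250 bases before the TNNI3 start is shown because it holds the letters of the GATA-factor motif AGATAA, and the levels of GATA4 and GATA6 are given further on. The sequence is from RefSeq (GRCh38.p14, chr19:55157733-55157982, minus strand). Capitals mark AGATAA read on the opposite strand, at positions -71 to -66 and -7 to -2, with -1 the base before the start.
TNNI3: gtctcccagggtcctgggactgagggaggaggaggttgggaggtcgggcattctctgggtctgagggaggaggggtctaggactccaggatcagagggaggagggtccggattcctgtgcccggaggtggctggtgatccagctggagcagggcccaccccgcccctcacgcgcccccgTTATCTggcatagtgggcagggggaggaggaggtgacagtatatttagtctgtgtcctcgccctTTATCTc
On either strand AGATAA is in 9.17% of 35116 windows of this length. Among the members, the TNNT2 window holds it as well, on the opposite strand at -225 to -220. RefSeq windows were at hand for 5 of the 7 members, and none for TNNI1 and TNNC1. A match is a description of letters and says nothing of binding in these cells.

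ACTC1, the main actin of the heart sarcomere, lies on chromosome 15 at 34790230 to 34795549. Its level on days 1, 2 and 3 was 6.46, 9.37 and 10.01 in FB, then 10.80, 11.38, 11.77 and 12.70 on days 4, 5, 6 and 8. BW gave 6.33, 8.37 and 7.71 early and 9.66, 12.19, 13.77 and 13.57 late. FW gave 5.99, 9.89 and 10.01 early and 10.92, 9.88, 10.82 and 11.60 late. In FBW it was 6.35, 7.10 and 8.31 early, then 10.87, 13.92, 14.00 and 14.00. Day 0 stood at 6.49, so every arm ended far above it. FB and FW were 4-fold above day 0 from day 2, and BW and FBW from day 4. On days 5, 6 and 8 FBW was highest.

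Late in the course ACTC1 was lower than in FBW in FB (-1.54 ± 0.57, 2.90-fold lower, adjusted p = 0.0371, 4 of 4 days) and in FW (-2.39 ± 0.57, 5.26-fold lower, adjusted p = 0.00342, 3 of 4 days). BW differed by -0.90 ± 0.57 (95% interval -2.14 to 0.34, adjusted p = 0.265). The FB call was lost without day 5, 6 or 8, with adjusted p of 0.179, 0.147 and 0.095 and values of -1.20 to -1.61, and the FW call without day 5 (-1.85, adjusted p = 0.052). Without day 4, on which FW stood above FBW, the values were -2.03 in FB and -3.21 in FW. With no day block the FB call was also lost (adjusted p = 0.151). On days 6 and 8 only 11 of 47323 probes were brighter than ACTC1 in FBW. The top of the quantile scale is fixed at 14.17, so the late ACTC1 differences may be understated. A further ACTC1 probe was detected on no array, at 4.26 to 4.93.

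ACTA1, the actin of adult skeletal muscle, lies on chromosome 1 at 229431245 to 229434094, and it went the other way. On days 1, 2 and 3 its level was 5.76, 9.58 and 10.10 in FB, and on days 4, 5, 6 and 8 it was 10.65, 10.11, 10.52 and 11.50. BW gave 5.77, 10.46 and 9.38, then 9.03, 9.63, 10.37 and 8.76. FW gave 5.72, 10.57 and 10.19, then 11.14, 9.84, 9.78 and 9.84. FBW gave 5.08, 8.06 and 6.52, then 6.07, 7.91, 9.21 and 9.65. All arms stood below day 0, at 7.36, on day 1 and above it on day 2. FB, BW and FW were 4-fold above day 0 on day 2, and FBW first on day 8.

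Over days 4 to 8 ACTA1 was higher than in FBW in FB (2.48 ± 0.64, 5.58-fold, adjusted p = 0.00591, 4 of 4 days) and in FW (1.94 ± 0.64, 3.84-fold, adjusted p = 0.0202, 4 of 4 days). In BW the difference was 1.24 ± 0.64 (95% interval -0.14 to 2.62, adjusted p = 0.171, 3 of 4 days). The FW call was lost without day 4 (0.90, adjusted p = 0.126) and without day 5 (1.94, adjusted p = 0.089), and in a fit of these 2 arms alone (adjusted p = 0.105). The FB call held without each day in turn, with values of 1.78 to 2.87 over the alternatives run.

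The windows before both actin starts are shown because over days 4 to 8 these related genes differed from FBW in opposite directions in FB and FW. Both are from RefSeq (GRCh38.p14, minus strands), ACTC1 at chr15:34795550-34795799 and ACTA1 at chr1:229434095-229434344. Capitals mark the CArG box, which serum response factor is known to bind, the TATA motif TATAAA and the muscle CAT motif CATTCC, each searched on both strands.
ACTC1: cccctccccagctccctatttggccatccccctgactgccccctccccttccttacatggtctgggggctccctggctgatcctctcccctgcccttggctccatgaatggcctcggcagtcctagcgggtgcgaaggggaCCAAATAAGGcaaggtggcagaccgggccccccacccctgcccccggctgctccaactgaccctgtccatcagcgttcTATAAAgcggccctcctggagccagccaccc
ACTA1: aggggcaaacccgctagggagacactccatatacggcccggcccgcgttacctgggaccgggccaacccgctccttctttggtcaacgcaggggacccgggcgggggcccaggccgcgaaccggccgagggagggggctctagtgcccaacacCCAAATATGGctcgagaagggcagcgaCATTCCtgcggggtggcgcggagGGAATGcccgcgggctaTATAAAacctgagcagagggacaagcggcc
Each holds 1 exact match to the CArG box (CCWWWWWWGG, W for A or T), at -109 to -100 in ACTC1 and at -97 to -88 in ACTA1. Looser CArG-like stretches were not searched. TATAAA lies at -31 to -26 in ACTC1 and at -30 to -25 in ACTA1. The ACTA1 window also holds CATTCC at -70 to -65 and, on the opposite strand, at -47 to -42, while this ACTC1 window holds none. No matches overlap. Among 35116 RefSeq windows of this length, 1.16% hold a CArG box, 10.7% TATAAA and 11.9% CATTCC. An exact MEF2 box, in 2.80% of windows, was found in none of the windows at hand for 5 members. The only TPM1 window lies before a start 5742 bases inside the gene, so the upstream end of TPM1 was not searched.

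TPM1 encodes a tropomyosin whose alternative starts, exons and ends give muscle and non-muscle forms. It lies on chromosome 15 at 63042747 to 63071915. The probe with the highest mean, ILMN_2360710, measured 12.79, 12.67, 13.21 and 13.70 in FB on days 4, 5, 6 and 8. BW gave 12.31, 13.02, 13.62 and 14.00, FW 12.69, 12.19, 12.78 and 13.47, and FBW 12.67, 14.05, 14.10 and 14.13. Day 0 was at 11.33. On day 4 the arms were close together, and on days 5 to 8 FBW was highest and FW lowest. On day 2 the order differed, with 12.31 in FB, 10.95 in BW, 12.33 in FW and 9.69 in FBW.

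The late difference of TPM1 was -0.64 ± 0.24 in FB (1.56-fold lower, adjusted p = 0.0359, 3 of 4 days) and -0.95 ± 0.24 in FW (1.94-fold lower, adjusted p = 0.00437, 3 of 4 days). In BW it was -0.50 ± 0.24 (adjusted p = 0.139, lower on 4 of 4 days). The FB call was lost without day 5 (-0.40), day 6 (-0.56) or day 8 (-0.72), with adjusted p of 0.070 to 0.203, and the FW call without day 5 (-0.65, adjusted p = 0.0501). The FB call was also lost with averaged probes (-0.47, adjusted p = 0.140), in a fit of these 2 arms alone (adjusted p = 0.083) and with no day block (0.198). The FW call was lost in the last 2 of these as well (0.0516 and 0.0583). On day 8 only 1 probe was brighter than this one in FBW, so its differences are also near the top of the scale.

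The 4 TPM1 probes fell into pairs that took different courses. ILMN_1716687 ran like ILMN_2360710, with late differences of -0.73 ± 0.24 in FB (adjusted p = 0.0226) and -1.07 ± 0.24 in FW (adjusted p = 0.00253). The other pair, ILMN_1685339 and ILMN_2278152, is annotated to 1 other RefSeq transcript. On day 8 ILMN_1685339 measured 8.91 in FB, 7.97 in BW, 8.33 in FW and 7.47 in FBW, so FBW was lowest there, whereas ILMN_2360710 was highest in FBW. On day 5 the same probe read 6.65 in FB, 7.14 in BW, 6.91 in FW and 8.16 in FBW. Its late difference from FBW was not called in FB (-0.27 ± 0.34, adjusted p = 0.520) or FW (-0.42 ± 0.34, adjusted p = 0.310), and ILMN_2278152 gave -0.22 and -0.44. The fit of each probe on its own was added after these courses had been seen, and the difference between probes was not tested.

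**Figure D2:**
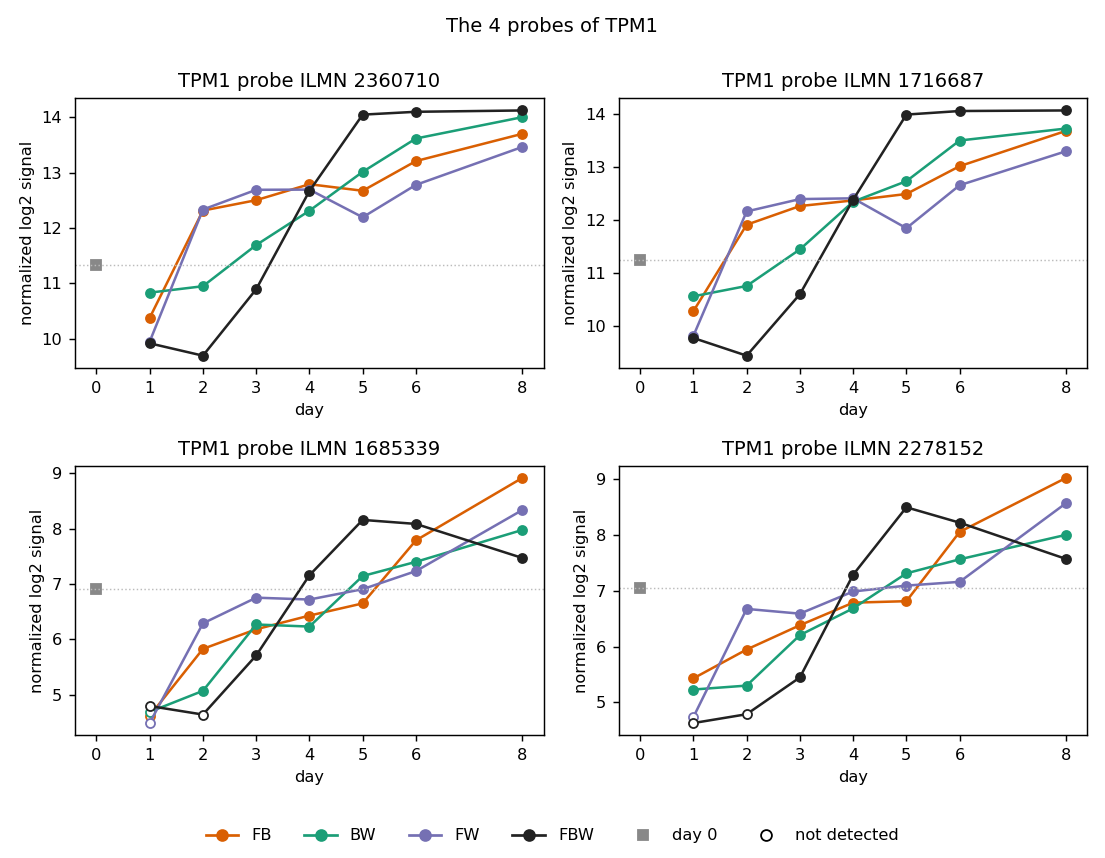
Normalised log2 signal of the 4 TPM1 probes (vertical axes, a separate range for each) by day (horizontal axes) in FB, BW, FW and FBW, 1 array per point, open points where not detected, with day 0 as a square. In the upper pair FBW is highest on days 5, 6 and 8, and in the lower pair FBW peaks on day 5 and is lowest on day 8.

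Counted together over days 4 to 8, FB had 4 of 6 members lower than FBW and 1 higher. Among all 12060 genes tested, 26.1% were lower in FB and 27.9% higher. FW likewise had 4 lower and 1 higher, against 28% and 29.9% of all genes. BW had 1 lower and 0 higher, against 12.5% and 13.2%. The median member difference was -1.10 in FB, -0.69 in BW and -1.13 in FW, and the median over all genes was 0.019, 0.0015 and 0.027. With TNNI1 at its bound the median is -0.75 in FB and -0.87 in FW. The 3 comparisons use the same 4 arrays of FBW, whose chance values enter them all. The number called in FB dropped to 3 without day 5 and to 2 without day 6 or day 8, and in FW to 2 without day 5. The 1 call in BW, TNNI1, rests on 1 detected BW array, was lost without day 5 or 6 and could not be tested without day 8.

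Between the 3 arms that lacked a factor, TNNC1 in BW over FW was the only member called, where 12.5% of genes were higher in BW and 12.6% lower. Without day 4 it was joined by ACTC1 (2.41) and TPM1 (0.73). BW against FB gave 0 member calls, with 9.96% of genes higher and 8.54% lower. Without day 4, TNNC1 (3.78) and ACTC1 (1.23) were called there. Over the alternatives run, all genes called ranged from 562 to 3394 in BW against FB and 1028 to 3886 in BW against FW. In FB against FW limma called 0 of 6 members and 0% of genes, with 0 members and 765 of 12060 genes under an unadjusted p of 0.05. The intervals of these FB minus FW differences stay wide, such as -0.38 to 2.09 for ACTC1 and -1.71 to 2.47 for TNNC1.

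**Figure D3:**
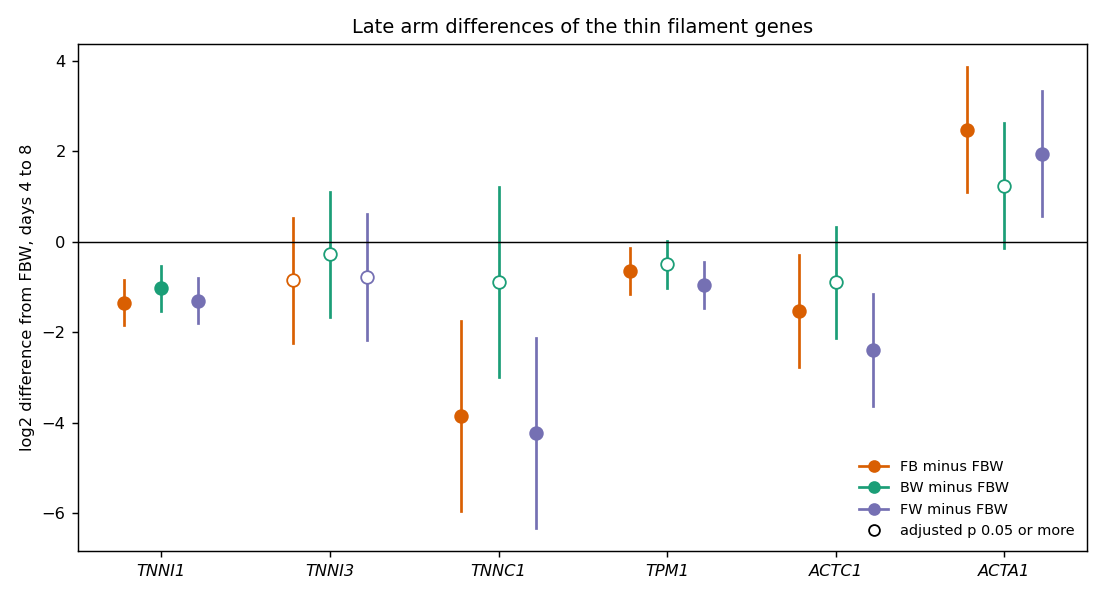
Log2 difference from FBW over days 4 to 8 (vertical axis) for each of the 6 members (horizontal axis) in FB, BW and FW, with 95% intervals as bars, filled where the adjusted p is under 0.05. TNNC1 lies near -4 in FB and FW and near -1 in BW, and ACTA1 is the member above 0 in all 3.

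In the first 3 days no member was called in any arm. TNNI1 was detected on no array then. Of 5 members tested, 0 were called in FB, where 0.243% of 11514 genes were, 0 in BW, where 0.00869% were, and 0 in FW, where 0.912% were. At an unadjusted p under 0.05 there were 4, 2 and 4, against 3247, 1423 and 3401 of all genes. ACTA1 had the largest early differences, 1.93 ± 0.51 in FB (adjusted p = 0.0732), 1.98 ± 0.51 in BW (0.185) and 2.28 ± 0.51 in FW (0.0580), each above FBW on 3 of 3 days. TPM1 followed with 1.57 ± 0.45 in FB, 0.99 ± 0.45 in BW and 1.49 ± 0.45 in FW. ACTC1 gave 1.36 ± 0.54 in FB (adjusted p = 0.143), 0.22 ± 0.54 in BW (0.888) and 1.38 ± 0.54 in FW (0.136), none called and all of the same sign as those of ACTA1. Without day 1, 3 members were called in FB, 1 in BW and 4 in FW, where 24.6%, 3.12% and 24.6% of 11207 genes were.

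Rises within days 4 to 8 were also read as slopes, a line per arm. In FBW 4 members had a called rise, where 11.1% of genes did: TNNI1 by 0.43 ± 0.05 log2 a day (adjusted p = 8.3e-05), TNNI3 by 0.89 ± 0.15 (0.00140), TNNC1 by 1.33 ± 0.26 (0.00304) and ACTA1 by 0.85 ± 0.19 (0.00795). TPM1 and ACTC1 gave 0.30 ± 0.11 and 0.63 ± 0.28 and were not called, and both were near the top of the scale in FBW from day 5. In BW 4 slopes were called as well, where 6.95% of genes had a called rise, but these were TNNI1 (0.20 ± 0.05), TNNC1 (1.10 ± 0.26), TPM1 (0.41 ± 0.11) and ACTC1 (0.91 ± 0.28). The TNNI1 line in BW runs through days 4, 5 and 6, on which it was not detected, and that in FBW through day 4, so both are read partly against background. TNNI3 (0.09 ± 0.15) and ACTA1 (-0.08 ± 0.19) were not called in BW. The slopes of BW and FBW differed for 0 of 6 members at the threshold, against 1.63% of genes. The largest such differences were -0.94 ± 0.28 for ACTA1 (adjusted p = 0.106) and -0.80 ± 0.22 for TNNI3 (adjusted p = 0.0824). The BW count dropped to 1 without day 4, 5 or 6 and to 2 without day 8, and the FBW count to 2 without day 4. The BW slope of ACTC1 (adjusted p = 0.0469) lost its call under 7 of 10 alternatives. That of TPM1 lost its call under 4 of 13. It was not called with ILMN_1716687 (0.35, adjusted p = 0.072) or ILMN_2278152 (0.31, 0.113), and was called with ILMN_1685339 (0.40, 0.0256).

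Across the 29 arrays TPM1 and ACTC1 followed each other most closely, with Pearson r of 0.95. TNNI1 and TNNC1 came next at 0.84. ACTA1 was nearly unrelated to TNNI1 (-0.03) and TNNC1 (0.15) and closer to TPM1 (0.62) and ACTC1 (0.59). The 29 arrays share 4 culture courses, so the values only describe them. Those of TNNI1, detected on 4 arrays, rest mostly on undetected readings.

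Among 12705 other genes detected on at least 3 arrays, the closest to the members' mean standardised course over the 29 arrays were SKIDA1 (r = 0.93), PPP1R3F (0.92), NEBL (0.91), BTG1 (0.90) and NEXN (0.90), with KCTD10, MOAP1, SIRPA, UBE2L6 and MXRA7 at 0.88 to 0.89. NEBL encodes nebulette, a cardiac actin-binding protein of the Z-disc, and NEXN the Z-disc protein nexilin. NEXN on day 8 measured 7.58 in FB, 8.82 in BW, 7.04 in FW and 9.99 in FBW. For TNNC1 the closest were XIRP1 (0.97), CSHL1 (0.97) and SMPX (0.97). XIRP1, an actin-binding protein of the cell junctions of heart muscle, was detected on 4 arrays of FBW and 3 of BW and on none of FB or FW. TNNI1 ran closest to KCNH7, WNT2 and RRAD (all 0.97), which were detected on 3, 6 and 5 of 29 arrays, so with TNNI1 itself on 4 these values rest mostly on undetected readings. TNNI3 ran closest to MFNG (0.86), REEP6 (0.83) and THBS4 (0.80). TPM1 ran closest to OSBPL2, KCTD10 and SKIDA1 (all 0.90), and ACTC1 to SKIDA1 (0.92), GPRC5C (0.91) and MXRA7 (0.91). ACTA1 had AGRN (0.86), MYL9 (0.84) and LAMA5 (0.84), which are a basement-membrane proteoglycan, a myosin light chain of smooth muscle and non-muscle cells, and a laminin chain. AGRN on day 4 measured 9.46 in FB, 9.43 in BW, 9.78 in FW and 8.30 in FBW.

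The relatives of the members were fixed as a list of 11 troponins, tropomyosins and actins, of which 8 were tested. In FB 2 were lower and 4 higher than in FBW, against 26.1% and 27.9% of all genes. BW had 0 and 1, against 12.5% and 13.2%, and FW 2 and 3, against 28% and 29.9%. The same shares of all genes stand beside the counts of the lists below. The median of the relatives was 0.22 in FB, 0.11 in BW and 0.19 in FW. TNNT1, the slow skeletal troponin T, was higher in all 3 arms, by 0.86 ± 0.29 in FB (adjusted p = 0.0239), 1.44 ± 0.29 in BW (0.00384) and 1.11 ± 0.29 in FW (0.00584), and it averaged 6.18 ± 0.96 in FB, 6.76 ± 0.21 in BW, 6.43 ± 0.83 in FW and 5.32 ± 0.64 in FBW (SD, n = 4 days). Day 0 had 6.82, above each of these means. ACTA2, the smooth muscle alpha-actin that early heart muscle also uses, was lower by 1.67 ± 0.30 log2 in FB (-1.67, adjusted p = 0.00058) and by 2.51 ± 0.30 in FW (-2.51, adjusted p = 2.49e-05), and differed by -0.36 ± 0.30 in BW. ACTG2, the smooth muscle gamma-actin, was higher than in FBW in FB (1.95 ± 0.63, adjusted p = 0.0194) and gave 0.73 in BW and 1.13 in FW. The cytoplasmic actin ACTB (0.35 in FB, 0.32 in FW) and tropomyosin TPM4 (0.57 and 0.48) were higher than in FBW. TPM2 was lower (-0.50 and -0.47). ACTG1 and TNNC2 were not called. The fast skeletal TNNT3 and TNNI2 were not detected in any arm on days 4 to 8, and TPM3 has no probe.

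Proteins that cap, anchor or fold the thin filament were counted apart. Of 12 tested, 8 were lower and 1 higher in FB, 3 and 2 in BW, and 8 and 2 in FW, with medians of -0.95, -0.76 and -0.99. TMOD1, which caps the slow-growing end of the filament, had the largest difference, -4.25 ± 0.53 in FB, -1.45 ± 0.53 in BW and -4.58 ± 0.53 in FW, with adjusted p of 4.46e-05, 0.0613 and 2.09e-05. It was detected on 4 of 4 FBW arrays and 4 of 4 BW arrays, but on 2 in FB and 0 in FW, so FBW was at least 17.8-fold above FW. DAAM1, an actin-assembly formin, differed least in FB (0.03 ± 0.13).

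**Figure D4:**
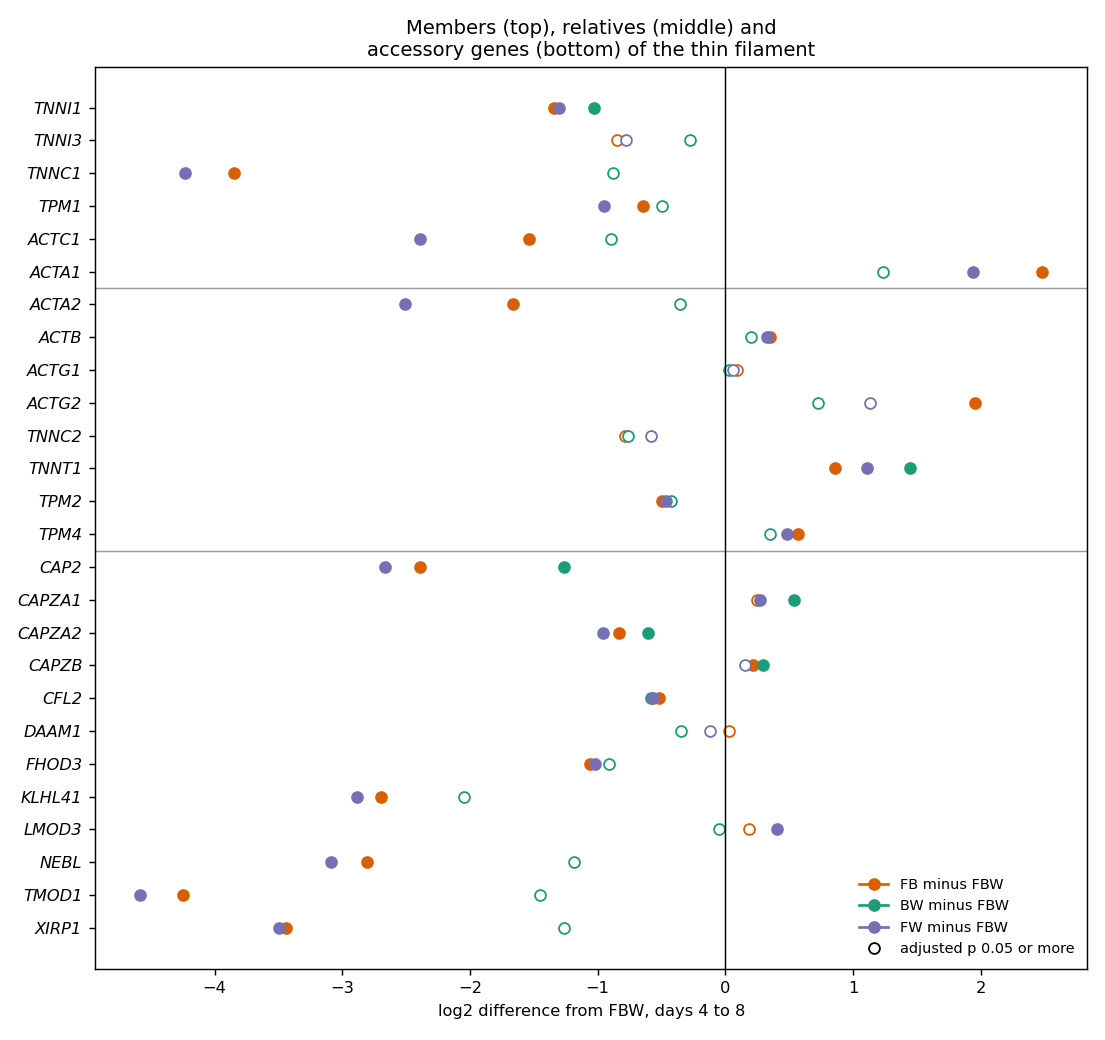
Log2 difference from FBW over days 4 to 8 (horizontal axis) in FB, BW and FW for the members (top block), their relatives (middle) and the accessory genes of the thin filament (bottom), 1 gene a row, filled points where the adjusted p is under 0.05. TMOD1 and TNNC1 lie beyond -3.8 in FB and FW, while ACTA1, ACTG2 and TNNT1 lie above 0.

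Other gene groups moved with these differences, and their part in them was not tested. Fitted differences of list genes that 1 arm did not detect use that arm's undetected readings and are not bounds. The list medians hold some of these fitted differences. Of the thick filament, Z-disc and M-band list, 15 of 16 tested were lower in FB, 4 in BW and 16 in FW, with medians of -2.92, -1.11 and -3.21. Of its 20 genes with a probe, 8 were detected on 1 or more late arrays in FB and 6 in FW, against 16 in BW and 17 in FBW. The FB and FW counts and medians of this list therefore rest in good part on undetected readings. MYL4, the atrial light chain, gave -5.67 ± 0.61 in FB, -1.48 ± 0.61 in BW and -7.00 ± 0.61 in FW. Of 13 cardiac regulators 9 were lower in FB, 7 in BW and 10 in FW. GATA4 and GATA6 were detected on no array of FB or FW in that window. FBW was at least 7.28-fold above FB and 7.52-fold above FW for GATA4, and at least 4.53-fold and 4.68-fold for GATA6. In BW the difference from FBW was -1.81 ± 0.22 log2 for GATA4 and -2.00 ± 0.24 for GATA6. SRF, serum response factor, was not called in any (-0.18 ± 0.14, -0.24 ± 0.14 and -0.15 ± 0.14), while its cardiac and smooth muscle partner MYOCD was lower in all 3. MYOCD was at least 1.95-fold higher in FBW than in FB and at least 2.01-fold higher than in FW, neither of which detected it, and gave -0.82 ± 0.28 in BW (adjusted p = 0.0480).

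Markers of other cell types were read beside ACTA1 and the members that were lower than in FBW. The skeletal muscle regulators MYOD1, MYF5, MYF6, MYOG, PAX3 and MYMK were detected on no array of days 4 to 8. PAX7 was detected in BW and FBW. The summed normalised signal of these 7 genes was 41.9 to 58.9 in FB, 42.5 to 69.5 in BW, 37.0 to 50.3 in FW and 39.1 to 72.4 in FBW. Of the skeletal fibre list, which has 9 genes with a probe, 1 was detected in FB, 2 in BW, 1 in FW and 1 in FBW. ACTN3 was the 1 detected in every arm, and its difference was -1.49 ± 0.66 in FB and 0.26 ± 0.66 in BW, neither called. The skeletal myosins MYH1, MYH2, MYH3 and MYH8 were detected in no arm.

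Of 8 smooth muscle genes tested, 2 were lower and 3 higher in FB, against 26.1% and 27.9% of all genes. BW had 0 and 1, against 12.5% and 13.2%, and FW 3 and 2, against 28% and 29.9%. TAGLN, an actin-bundling protein, gave 1.37 ± 0.47 in FB and 1.20 ± 0.47 in FW. ACTA2 and ACTG2, already given among the relatives, are on this list too, and ACTA2 was lower in FB and FW. MYH11, the smooth muscle myosin, was detected in neither FB nor BW, and on 2 of 4 FBW arrays. Its level in FBW was at least 1.53-fold above FB and at least 1.71-fold above BW. Summed signals of the list were 4384 to 15021 in FB, 3568 to 11416 in BW, 4416 to 9268 in FW and 1985 to 14569 in FBW. The surface ectoderm genes TFAP2A, TFAP2C, DLX5, KRT7 and GABRP were all higher in FB, BW and FW, with medians of 4.49, 4.02 and 4.49, and summed to 4277 to 10503 in FB, 2911 to 5660 in BW, 3174 to 9372 in FW and 89.0 to 649 in FBW. DLX5 and KRT7 were not detected in FBW. DLX5 was at least 41.6-fold higher in FB, and KRT7 at least 2.42-fold higher in BW. Of 5 pluripotency genes, 5 were higher in FB, 4 in BW and 5 in FW, from SOX2 (6.15 ± 0.33 in FB) to DPPA4 (0.61 ± 0.12 in FB). Their summed signal was 5826 to 14267 in FB, 4866 to 9369 in BW, 6381 to 14766 in FW and 1604 to 5754 in FBW, where NANOG was not detected. Of 5 endothelial genes 4 were lower in FB, 1 in BW and 4 in FW, from CDH5, which was at least 4.36-fold higher in FBW than in FB, to TEK (0.39 ± 0.69 in FB, not called), with summed signals of 124 to 555 in FB, 160 to 713 in BW, 135 to 683 in FW and 196 to 975 in FBW.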

How the data were processed

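The authors deposited a raw table of bead signals per probe (intensity, background not removed), each with a detection p-value, made in GenomeStudio per the submitters' processing notes. The intensities of the authors' processed table, whose making no source used here states, served as an alternative.

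The neqc function of limma (version 3.58.1, under R 4.3.3) corrected the background and quantile normalised the raw signals, with an offset of 16 and negative controls inferred from the detection p-values. Of 47323 probes, 30113 carry 1 gene symbol, 8 several and 17202 none in the platform annotation. A gene was represented by its probe of highest mean over 29 arrays, and tested if 3 or more arrays of a fit detected it. Comparisons used lmFit and eBayes with a trend, all 4 arms in the fit and day as a block (16 arrays on days 4 to 8, 9 residual degrees of freedom; 12 arrays on days 1 to 3, 6 degrees). Slopes came from a line per arm (8 degrees). P-values were adjusted by Benjamini-Hochberg over all genes tested and called at 0.05. Errors are standard errors unless named SD. The number of arrays limits the precision. The fit was tested on simulated data.

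The genes named are the members, all relatives, each list's largest and smallest differences and those closest in course, beside a few marker and regulator genes taken from the lists after their values were seen. The members and lists were chosen with earlier results of these data known. Promoter windows and gene positions are from RefSeq tables of GRCh38.p14, and the place of a probe within its gene was not used here. Alternatives were quantile normalisation without background correction, the authors' table, no detection filter, averaged probes, array weights, no trend, 2 arms per fit, no block and each day left out.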

Additional observations from a re-analysis of the deposited data

How the results depend on the processing

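Values are numbers of members called unless stated. With no replicate block the late FB count was 3 and that of BW over FW 0, and the late FW count was 4. With only the 2 arms compared, BW against FBW gave 3, FW against FBW 3 and FB against FW 2. Array weights gave 1 for BW against FB, 3 for BW against FW, and 4 each for FB and FW on days 1 to 3. Without background correction the FBW course had 3 members past 4-fold, and with the correction 4 where both arrays had to detect the gene. With each day left out in turn, counts on days 4 to 8 ranged from 2 to 5 in FB, 0 to 1 in BW, 2 to 5 in FW, 0 to 2 for BW against FB and 0 to 3 for BW against FW. On days 1 to 3 they ranged from 0 to 3 in FB, 0 to 1 in BW and 0 to 4 in FW, and for slopes from 2 to 5 in FBW and 1 to 2 in BW. The number of all genes called also changed between settings, as given below, so a change in a member count need not be particular to the members. The cause of these changes was not tested.

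Some uncalled differences turned sign. TPM1 in BW minus FB became -0.052 with averaged probes and -0.26 and -0.28 with the dimmer pair, which gave -0.11 and -0.062 for BW minus FW and, for 1 of them, a slope of -0.0045 in FBW. With each day left out TNNI3 ranged from -0.68 to 0.31 in BW minus FBW, -1.47 to 0.031 in FW minus FBW and -0.19 to 0.016 in FB minus FW. Early BW minus FBW ranged from -0.18 to 0.077 for TNNC1 and -0.31 to 0.62 for ACTC1. The BW slope of ACTA1 ranged from -0.36 to 0.67, and the slope difference from -0.48 to 0.089 for TNNC1 (0.020 with array weights) and -0.063 to 0.29 for TPM1. Over all genes, the calls ranged from 4489 to 7434 in late FB (6510 in the analysis reported), 1166 to 3250 in BW (3098), 4932 to 7774 in FW (6983), 562 to 3394 for BW against FB (2231), 1028 to 3886 for BW against FW (3031) and 0 to 185 for FB against FW (0). Early calls ranged from 0 to 3648 in FB (28), 0 to 350 in BW (1) and 0 to 2757 in FW (105), and slopes from 1192 to 2662 in FBW (2646), 289 to 1806 in BW (1766) and 0 to 226 for their difference (196). Signal near background limits TNNI1, and the top of the scale limits ACTC1 and TPM1.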

Other observations

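The probe annotated to CSHL1, a gene of the placental growth hormone family, ran with TNNC1 at r of 0.97 over the 29 arrays. On days 4, 5, 6 and 8 it measured 4.42, 5.36, 4.55 and 4.47 in FB, detected on day 5 alone. BW gave 4.34, not detected, then 6.71, 9.31 and 9.88. FW gave 4.58, 4.45, 4.30 and 4.73, none detected, and FBW gave 5.42, 9.53, 10.05 and 10.51. Day 0 was at 4.67, not detected. Genes of this family are near-identical copies, so the signal cannot be tied to 1 of them from these files.

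SKIDA1, the gene closest to the members' mean course, reached 8.74 in FB, 10.01 in BW, 8.65 in FW and 10.41 in FBW on day 8, against 7.04 on day 0. KCNH7, a potassium channel gene closest to TNNI1, was detected in FBW on days 5, 6 and 8 at 5.03, 5.74 and 6.19 and on no other array.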
